A study of Mus musculus with 3 samples.

Results

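Thymic endothelial cells (EC) with transcripts of Sox17 or of the connexins Gja5 and Gja4 were described in single-cell RNA-seq data of the thymic stroma of mice aged 20 months. The barcodes were chosen by their UMIs of 9 genes. A barcode entered when it had more than 1000 genes and under 20% mitochondrial counts, at least 2 unique transcripts (UMIs) of Pecam1 and Cdh5, at least 2 UMIs of Gja5, Gja4 and Sox17 summed, and none of Selp, Ackr1, Epcam or Pdgfra. These barcodes, called Sox17/Gja EC below, numbered 618 of 2433 EC (Foxn1Lin female), 273 of 941 (Foxn1Lin male) and 226 of 1026 (wild type male), where EC are all barcodes with at least 2 UMIs of Pecam1 and Cdh5. In total 1117 barcodes of 17677 called ones were members. All 3 libraries came from untreated C57BL/6 mice and from thymus cells depleted of CD45-positive blood cells. Foxn1Lin mice carry a Foxn1-driven Cre that switches on a tdTomato reporter in cells of the epithelial lineage, and wild type mice carry neither. Each library was the only one of its group, so sex and genotype cannot be told apart from the library, and each was made from a pool given as 10 to 15 thymi. The protocol in the labels names female mice for all 3 libraries, against the sex given for both male ones, and the cell type given for wild type male names PECAM1-positive cells although its title does not.

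Arterial EC are set apart from those of capillaries and veins by Notch signalling, in which the ligands Dll4 and Jag1 act on Notch receptors and the repressors Hey1 and Hes1 are targets. Sox17 is a transcription factor of arterial EC, and Gja5 and Gja4 encode connexin 40 and connexin 37, the gap junction proteins that couple the EC of arteries. In the thymus, arteries branch in the septa into capillaries of the cortex, and blood leaves through venules around the medulla, whose EC carry Selp (P-selectin) and take up progenitors of T cells. The 9 genes that the rule used were left out of every test, and their levels are a description.

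The gate genes were found together in few members. Sox17 alone, with no UMI of either connexin, had selected 460 members (74.4%) of Foxn1Lin female, 205 (75.1%) of Foxn1Lin male and 141 (62.4%) of wild type male. Gja4 without Gja5 was found in 118, 31 and 37 members in the same order of libraries, which is kept below. Gja5 was found in 40 (6.47%, 95% exact binomial interval 4.66 to 8.71), 37 (13.6%, 9.73 to 18.2) and 48 (21.2%, 16.1 to 27.2) members. Wild type male thus had the highest share of members with Gja5 and Foxn1Lin female the lowest, without a test since each group is 1 library. Over all members Gja5 was at 11.1, 26.5 and 54.9 CPM, under 1 UMI per barcode at these depths, so a barcode without its UMIs cannot be told apart from one in which it was not captured. Median depth was alike in members with and without Gja5, at 7278.5 and 6417 UMIs, 8359 and 8666 UMIs, and 8910.5 and 8476 UMIs.

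**Figure D1:**
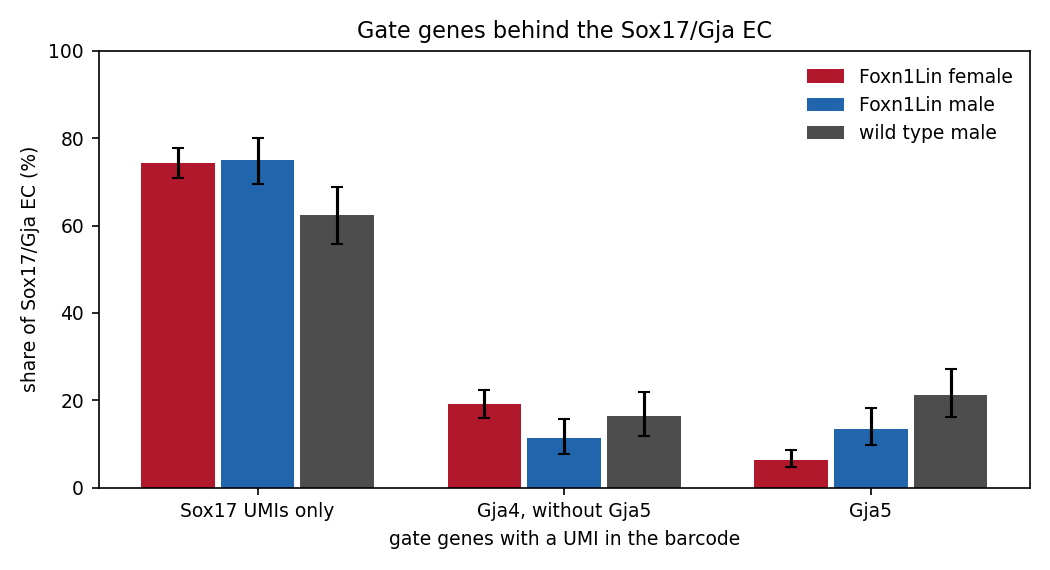
Share of Sox17/Gja EC (percent, y axis) with Sox17 UMIs alone, with Gja4 but no Gja5, and with Gja5 (x axis) in each of the 3 libraries, with 95% exact binomial intervals that cover counting error only. Sox17 alone selected 62.4% to 75.1% of members, and Gja5 was present in 6.47% to 21.2%.

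Members made up 25.4% (23.7 to 27.2), 29.0% (26.1 to 32.0) and 22.03% (19.5 to 24.7) of EC. With a gate of at least 3 UMIs the shares were 16.2%, 22.6% and 15.7%, and with every barcode thinned to 2000 UMIs they were 10.8%, 11.2% and 7.23%, so the size of the set followed the threshold and the depth. With Gja5 and Gja4 alone counted the shares were 3.12%, 4.57% and 5.17%, and Foxn1Lin male no longer had the highest. Gate UMIs in 69, 97 and 76 further EC came with Selp or Ackr1, and in 93, 28 and 46 with Epcam or Pdgfra, and these stayed out. Members had medians of 6441, 8548 and 8588.5 UMIs. UMIs found in no called barcode, a sign of free RNA, made up 26.5% of the Foxn1Lin female library and 12.9% and 9.46% of the male ones. Members held the 11 general EC markers of the fixed list at a summed level of 8023, 7403 and 7205 CPM (UMIs of a gene per 1000000 UMIs of a class), and all 11 had UMIs in each library. Other EC held them at 5425, 5523 and 3971 CPM.

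Against all other EC, more genes of the arterial, Notch, capillary, vascular tone and general EC marker lists were higher than lower in Sox17/Gja EC. Of 21 venous genes 13 were lower and 3 higher, but the rule had kept Selp and Ackr1 out of members while 185, 307 and 294 of the other EC had Selp, so this list was no result of the comparison. UMIs were summed per library and class and compared within libraries over the 3 libraries with edgeR's quasi-likelihood test at a Benjamini-Hochberg adjusted p under 0.05. Of 13757 genes tested, 1233 (8.96%) were higher in members and 1919 (13.9%) lower. Without wild type male 1654 genes were called in either direction in place of 3152 (22.9%), and with every barcode thinned to 2000 UMIs 58 of 8419 genes tested (0.689%) were. Among 36 genes of arterial identity 27 were higher and 0 lower, with a median log2 fold change of 1.16 against 0.0081 over all genes. The gate genes are themselves arterial, so the direction of this list was not independent of the rule. Stmn2, a stathmin of the microtubule cytoskeleton, was found at 131, 102 and 114 CPM in members and 58, 17.2 and 11 CPM in other EC (log2 fold change 2.45 ± 0.37 (SE), edgeR adjusted p = 0.00382). Fbln5, an elastic fibre protein, was found at 109, 200.2 and 247 CPM against 66.7, 55 and 51.2 CPM (log2 fold change 1.76 ± 0.27 (SE), edgeR adjusted p = 0.00409). Sema3g, a secreted semaphorin, was found at 96.7, 144 and 299.8 against 45.2, 34.2 and 40.8 CPM (log2 fold change 2.16 ± 0.30 (SE), edgeR adjusted p = 0.00296). For these 3 genes every value in members lay above every value in other EC.

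Of 24 Notch pathway genes 10 were higher and 2 lower. Higher were the ligands Dll4 (1.10 ± 0.16 log2), Jag1 (0.79 ± 0.21) and Jag2 (1.17 ± 0.18), the receptors Notch1 (0.94 ± 0.13), Notch3 (1.25 ± 0.17) and Notch4 (1.39 ± 0.18), the targets Hey1 (1.54 ± 0.23), Hes1 (1.08 ± 0.12) and Nrarp (1.26 ± 0.13), and the Notch inhibitor Numb (0.54 ± 0.13). Notch3 is also on the list of mural markers, of which 4 of 11 were higher (Rgs5, Notch3, Pdgfrb and Kcnj8) and 0 lower. Lower were the receptor Notch2 (-1.37 ± 0.16) and the DNA-binding factor Rbpj (-0.58 ± 0.13). Efnb2, the ephrin ligand of arteries, was found at 99, 171 and 251 CPM against 86.2, 63.9 and 95.8 CPM (log2 fold change 1.15 ± 0.23 (SE), edgeR adjusted p = 0.0119). Without wild type male Jag1, Efnb2 and Fabp4 lost their calls (adjusted p = 0.135, 0.0802 and 0.0707 in edgeR), and Rbpj did without either Foxn1Lin library (0.0889 and 0.0871). Capillary genes rose as well, 15 of 22 tested against 2 lower, with a median log2 fold change of 0.93. So did the general EC markers, 9 of 11 against 1 lower, with a median of 0.80. The part of this general rise in the Notch, capillary and vascular tone lists was not tested. Gpihbp1, which carries lipoprotein lipase onto the capillary wall, was found at 1964, 1955 and 652 CPM against 1181, 715 and 216 CPM (log2 fold change 1.41 ± 0.19 (SE), edgeR adjusted p = 0.00244), and the fatty acid carriers Cd36 and Fabp4 were higher by 1.21 ± 0.20 and 1.24 ± 0.19 on the log2 scale. With the gate set on Gja5 and Gja4 alone the log2 fold change of Gpihbp1 was -0.15, and without mural barcodes as well it was -0.81, with Cd36 at -0.04 and Fabp4 at -0.34. In that last setting Hes1 was at -0.02. Dll4 ranged from 0.12 to 1.26 over 16 alternatives, and lost its call in 3 of them. At least 2 UMIs of Acta2, Tagln, Myh11, Rgs5 and Pdgfrb, genes of the pericytes and smooth muscle that wrap vessels, were found in 39.0%, 10.6% and 9.29% of members against 27.5%, 23.95% and 25.4% of other EC. Without barcodes with those UMIs 1966 genes were called in place of 3152. Rgs5 was among the genes with the largest increase (log2 fold change 1.71 ± 0.13 (SE), edgeR adjusted p = 0.000438), and is itself one of the genes by which those barcodes were found. Of 32 genes of flow response and vascular tone 17 were higher in members and 5 lower.

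Among the genes with the largest decreases were Fgf23, a hormone of phosphate balance, and F5, coagulation factor V. Fgf23 was found at 0.411, 1.03 and 0 CPM in members, 7.07, 242 and 154 CPM in other EC and 35.2, 477 and 541 CPM in those with at least 2 UMIs of Selp and Ackr1, and F5 at 0.821, 1.03 and 1.31 CPM in members, 15.4, 149 and 93.1 CPM in other EC and 115, 321 and 347 CPM in those with Selp and Ackr1. Both were thus highest in barcodes that the rule had kept out of members, and their decreases are given as a description. Markers of other lineages moved with this comparison. All 8 T-lineage markers, all 8 thymic epithelial markers and 7 of 8 fibroblast markers were lower in members. Their summed levels were 67.1, 15.2 and 83.7 CPM in members against 301, 165 and 505 CPM in other EC for T-lineage genes, and 104, 17.6 and 27.0 against 1294, 607 and 1628 CPM for epithelial genes. Epcam and Pdgfra had kept out epithelial and fibroblast barcodes by the rule, so the last 2 lists were not results, and the part of such barcodes in the other calls was not tested here. Erythroid markers went the other way, summed at 5103, 2286 and 1570 CPM in members against 3735, 316 and 26.3 CPM. Of the 5, Hbb-bt alone was called higher and 0 were called lower. The next comparisons set the members against EC held to the same exclusions.

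The promoters of the genes with the largest changes in this comparison were searched for the letters of 3 motifs on both strands, over the 250 bases before the RefSeq start (GRCm38.p6). These were AACAAT (SOX proteins), TGGGAA (the Notch factor RBPJ) and CACGTG (HEY repressors). Among 32851 listed promoters 9.42%, 21.6% and 6.02% held them. Among the 12 genes named as higher, 11 had an entry, and TGGGAA was found for 3 of them (Fbln5, Rbp7 and Lrrc3b), AACAAT and CACGTG for 0. These 11 genes had 13 promoters, of which 3 held TGGGAA, and the other promoter of Fbln5 (chr12:101818485-101818734) held none of the motifs. Among the 13 promoters of 11 of the 12 genes named as lower, 2 held TGGGAA and 1 AACAAT. The windows of Fbln5 (chr12:101819120-101819369, minus strand) and Rbp7, a retinol-binding protein of EC (chr4:149454969-149455218, minus strand), are shown as the 2 with the motif among the genes followed below, 5′ to 3′ along the gene, with the motif or its reverse complement in capitals.
Fbln5: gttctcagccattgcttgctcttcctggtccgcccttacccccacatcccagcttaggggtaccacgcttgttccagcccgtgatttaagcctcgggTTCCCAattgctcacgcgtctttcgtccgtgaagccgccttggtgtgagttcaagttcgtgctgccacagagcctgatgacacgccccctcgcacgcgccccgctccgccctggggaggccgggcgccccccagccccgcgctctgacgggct
Rbp7: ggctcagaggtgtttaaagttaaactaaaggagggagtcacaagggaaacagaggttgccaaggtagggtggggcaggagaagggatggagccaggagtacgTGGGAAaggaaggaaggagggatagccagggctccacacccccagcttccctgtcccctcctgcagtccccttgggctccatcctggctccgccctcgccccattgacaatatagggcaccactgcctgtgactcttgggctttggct
The motif began 153 bases before the start of Fbln5, where it read on the opposite strand, and 148 bases before that of Rbp7. A match of 6 letters is a description of the sequence and not of binding.

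Selp/Ackr1-positive EC, with at least 2 UMIs of Selp and Ackr1, fewer than 2 gate UMIs and none of Epcam or Pdgfra, numbered 77, 191 and 190 and are called venular EC below. Against them 1396 (12.6%) of 11049 genes were higher in members and 1786 (16.2%) lower, 28.8% in all, and 1489 genes were called without Foxn1Lin male. Alpl, the tissue alkaline phosphatase, was found at 51.1, 45.1 and 85.8 CPM in members and at 0 UMIs in the venular EC of all 3 libraries, at least 98.3-fold higher against a floor of 3 UMIs over the group. Hey1 was found at 72.1, 59.6 and 71 CPM against 4.59, 1.47 and 2.53 CPM (log2 fold change 4.53 ± 0.26 (SE), edgeR adjusted p = 1.85e-06) and Sema3g at 9.17, 4.41 and 6.08 CPM in venular EC (log2 fold change 4.75 ± 0.30 (SE), edgeR adjusted p = 3.09e-06), and the 2 classes overlapped in neither gene. Rbp7 (5.19 ± 0.48 log2), Nebl (6.88 ± 0.56), Igfbp3 (4.76 ± 0.30) and Timp4 (4.26 ± 0.45) were higher too. Markers of other cell types moved with this comparison. All 5 erythroid markers were higher (summed 5103, 2286 and 1570 CPM in members against 110.1, 60.8 and 0.507 CPM), as were 3 of 5 myeloid markers (Tyrobp, Lyz2 and Laptm5, with the list at 51.1, 9.65 and 115 against 12.2, 18.1 and 12.7 CPM) and 5 of 10 mural ones (Rgs5, Notch3, Pdgfrb, Des and Kcnj8), with Tagln lower. The sums rested on few barcodes in places. An erythroid UMI was found in 63.4%, 2.56% and 2.21% of members, and 63 of the 94 Lyz2 UMIs of members in Foxn1Lin female and 74 of 97 in wild type male came from 1 barcode each, as did 19 of 34 and 33 of 57 for Tyrobp. Without barcodes with at least 2 mural UMIs 2692 of 10685 genes tested (25.2%) were called. The part of the other markers in the result was not tested. Of the 35 arterial identity genes tested 24 were higher, and 4 were lower (Eln, Fbln2, Mecom and Tm4sf1), 2 of which encode proteins of the elastic fibre. The arterial gate genes divided these classes too, so the direction of this list was not independent of the rule. Alpl, Hey1, Sema3g, Rbp7 and, below, Cxcl12 are on it and are given as a description.

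Of 21 venous genes 18 were lower and 0 higher. Selp and Ackr1 had divided the classes, so this list too was no result, and its genes are given by level alone. Vwf was found at 32.7, 81.7 and 132 CPM in members and 613, 822 and 837 CPM in venular EC, and Nr2f2, the factor COUP-TFII that marks veins, at 84.6, 87.2 and 78 CPM against 157, 242 and 206 CPM. Sele, E-selectin, was found at 6.16, 1.03 and 6.1 CPM in members and 497, 767 and 529.7 CPM in venular EC. The chemokine Cxcl12 was higher in members, at 1298, 1110.5 and 1245 against 315, 128 and 166 CPM (log2 fold change 2.50 ± 0.19 (SE), edgeR adjusted p = 7.75e-06). Kitl, stem cell factor for thymic progenitors, did not pass the test (864, 1058 and 1308 against 711, 974 and 972 CPM, log2 fold change 0.09 ± 0.12 (SE), edgeR adjusted p = 0.635). Of the 22 capillary genes 16 were higher and 5 lower in members, the latter Plvap, Aqp1, Emcn, Tmem252 and Col15a1.

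The remaining EC, with no Selp, Ackr1, Epcam or Pdgfra and fewer than 2 gate UMIs, numbered 1222, 256 and 338, and in this comparison few genes passed the test. Of 11049 genes 35 (0.317%) were higher in members and 97 (0.878%) lower, 1.19% in all. Arterial identity genes were higher in 7 of 35 and lower in 0, capillary genes higher or lower in 0 of 22 and venous genes in 0 of 21. The arterial gate genes divided these classes as well, so the direction of the arterial list was not independent of the rule. Of 23 Notch genes Hey1 alone was higher and of 31 genes of flow response and tone Edn1 alone, with 0 lower in both lists. The 7 were Stmn2 (64.3, 23.3 and 22.2 CPM in remaining EC, log2 fold change 1.84 ± 0.31 (SE), edgeR adjusted p = 0.0288), Vegfc (1.51 ± 0.30, adjusted p = 0.0445), Fbln5 (1.49 ± 0.21, adjusted p = 0.0188), Sema3g (1.15 ± 0.19, adjusted p = 0.0288), Edn1 (1.13 ± 0.22, adjusted p = 0.0444), Hey1 (0.92 ± 0.15, adjusted p = 0.0288) and Glul (0.81 ± 0.13, adjusted p = 0.0252). Vegfc is a growth factor of lymphatic vessels, Edn1 encodes endothelin 1 and Glul glutamine synthetase. Gpihbp1 was found at 1769, 2160.4 and 622 CPM in remaining EC (log2 fold change 0.12 ± 0.25 (SE), edgeR adjusted p = 0.89), Cd36 at 1992, 3562 and 3228 CPM and Dll4 at 108, 125 and 115 CPM (log2 fold change 0.29 ± 0.12 (SE), edgeR adjusted p = 0.333), and none of the 3 passed the test. The calls depended on single libraries. Without Foxn1Lin male 0 genes were called by edgeR, although 910 had an unadjusted p under 0.05, and without wild type male 2 were called. Each of the 7 arterial genes lost its call in both cases, with adjusted p from 0.0651 to 0.277. DESeq2 called 168 with all 3 libraries.

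Depth and mural transcripts moved with this comparison. Members had medians of 6441, 8548 and 8588.5 UMIs and remaining EC of 3354.5, 4883 and 4747. With all barcodes thinned to 2000 UMIs and the gate applied again, 1 of 6607 genes tested was called. Of the 7 arterial genes Hey1 then had a log2 fold change of -0.06, and the others kept their direction without a call, at 1.12 for Stmn2, 1.37 for Vegfc, 0.96 for Sema3g, 0.87 for Edn1, 0.78 for Fbln5 and 0.78 for Glul. At least 2 of the mural UMIs were found in 19.9%, 6.25% and 6.21% of remaining EC, below the shares of members given above. Without such barcodes 123 of 10685 genes tested (1.15%) were called. The 12 mural markers summed to 1312, 407 and 475 CPM in members against 643, 356 and 114 CPM, with Cnn1 at 0 in both classes of wild type male. Rgs5 was found at 504, 201 and 237 CPM against 229, 72.2 and 63.7 CPM (log2 fold change 1.56 ± 0.16 (SE), edgeR adjusted p = 0.005). Of the 8 T-lineage markers Ptprc, Cd3d and Cd8b1 were lower in members and 0 higher. Among the 12 genes named as lower were Trbc2, the constant chain of a T-cell receptor (10.3, 1.72 and 14.4 against 36.6, 97.7 and 126 CPM, log2 fold change -3.08 ± 0.57 (SE), edgeR adjusted p = 0.0352), Bcl11b (-2.82 ± 0.40 log2), Satb1 (-2.50 ± 0.39) and Themis (-2.39 ± 0.42). The 8 markers summed to 156, 249 and 479 CPM in remaining EC against 67.1, 15.2 and 83.7 CPM in members, and the part of such barcodes in the result was not tested.

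**Figure D2:**
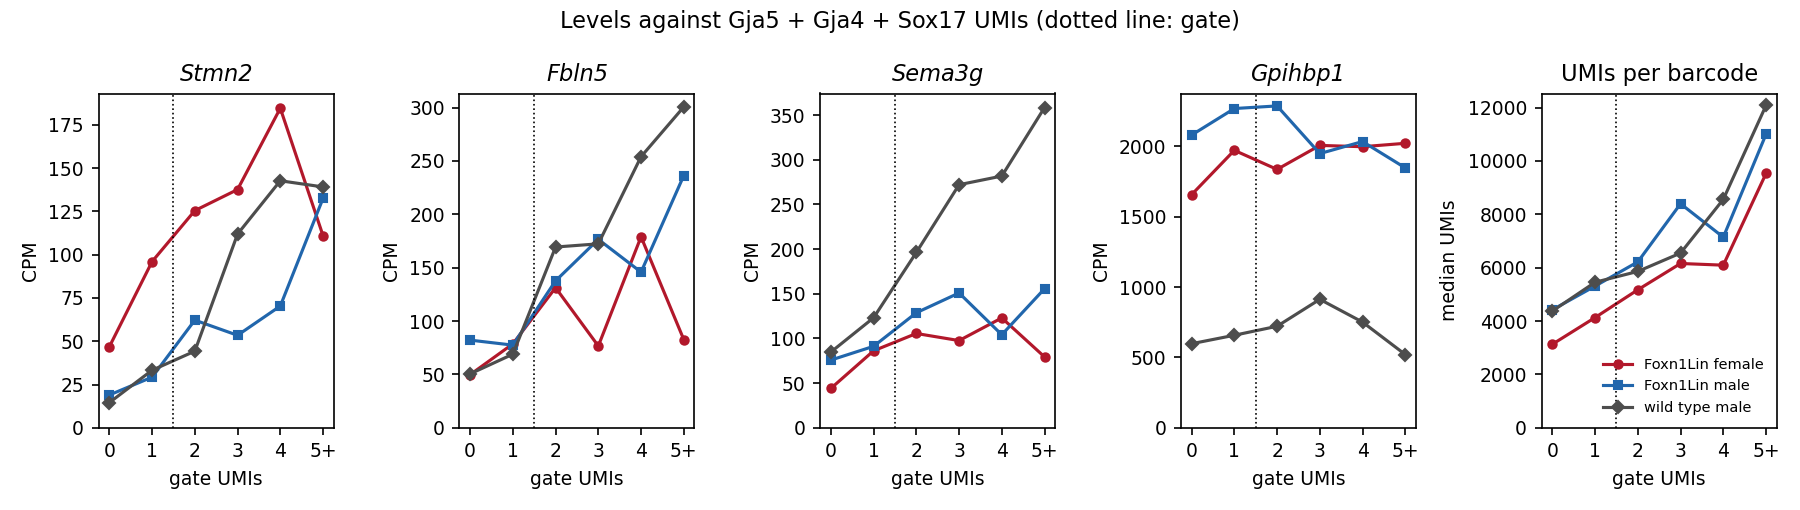
Level of 4 genes (CPM) and median UMIs per barcode (y axes) by the number of Gja5, Gja4 and Sox17 UMIs (x axis) in EC without Selp, Ackr1, Epcam or Pdgfra, 1 line per library, with the gate as a dotted line. Stmn2, Fbln5 and Sema3g were higher at 2 gate UMIs than at 1 in each library, and so was depth.

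Levels did not rise steadily with the gate UMIs in every library. In EC just outside the gate, with 1 gate UMI, Fbln5 was at 78.6, 77.5 and 69.0 CPM, and in those just inside, with 2, at 131, 138 and 169 CPM. Stmn2 was at 96.0, 29.3 and 33.3 CPM outside and 125, 62.2 and 44.3 CPM inside, and Gpihbp1 at 1972, 2269 and 658 CPM outside and 1836, 2288 and 722 CPM inside. In Foxn1Lin female Fbln5 was at 76.7 CPM with 3 gate UMIs, 179 CPM with 4 and 82.7 CPM with 5 or more, and Sema3g was at 79.4 CPM with 5 or more against 86.2 CPM with 1, so barcodes far inside the gate were near the level just outside it. In both male libraries Fbln5 with 5 or more was at 236 and 301 CPM. Median depth went from 4131.5, 5310.5 and 5454 UMIs at 1 gate UMI to 9530, 10998.5 and 12078 UMIs at 5 or more.

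Members were also divided by whether they held a UMI of Gja5. The 125 Gja5-positive members were compared with all other members in the same 3 libraries, and 356 (3.98%) of 8954 genes were higher and 295 (3.29%) lower. Without wild type male 211 genes were called in place of 651 (7.27%). With barcodes thinned to 2000 UMIs 58 genes were called, 4.52% of the 1282 that could be tested. Arterial identity genes were higher in 25 of 34 and lower in 2, with a median log2 fold change of 1.17 against -0.0016 over all genes, and capillary genes were lower in 15 of 20 and higher in 0, with a median of -0.99. Gja5 is a gene of the gate and itself arterial, so the direction of the arterial list was not independent of the choice of class. A split by an arterial gene also bears on the direction of capillary genes, so that list was not independent of it either. The counts, genes and p-values of both lists are given as a description. Of the mural markers 0 of 9 were called. They summed to 2985, 196 and 623 CPM in Gja5-positive against 1197, 434 and 436 CPM in Gja5-negative members, and at least 10 UMIs of the 5 mural genes were found in 32.5%, 2.70% and 8.33% against 16.96%, 7.203% and 5.62%. Both measures were higher in the Gja5-positive class of Foxn1Lin female and wild type male and lower in that of Foxn1Lin male. Without barcodes with at least 2 mural UMIs 634 of 8177 genes tested (7.75%) were called. The part of mural transcripts in the result was not tested beyond this.

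Fbln5 (chr12:101746565-101819055, GRCm38) was found at 436, 818 and 690.3 CPM in Gja5-positive and 86.7, 119 and 131 CPM in Gja5-negative members (log2 fold change 2.52 ± 0.14 (SE)). Every Gja5-positive value lay above every Gja5-negative one. After thinning to 2000 UMIs a Fbln5 UMI was found in 47.5, 73 and 64.6% of Gja5-positive and 12.3, 16.2 and 15.3% of Gja5-negative members, against 13.7, 2.98 and 5.36% of barcodes that were not EC. Stmn2 (chr3:8509360-8561606) was found at 521, 397 and 310.3 against 104, 62.8 and 63.1 CPM (log2 fold change 2.44 ± 0.14) and Sema3g at 324, 513 and 701 against 81, 95.5 and 195 CPM (log2 fold change 2.10 ± 0.15). Their classes did not overlap either. Vegfc was found at 219, 184 and 802 against 41.3, 12.9 and 52.2 CPM (log2 fold change 3.39 ± 0.29), highest in wild type male. Gkn3, a secreted gastrokine of arterial EC, was found at 85.8, 38.5 and 116 CPM against 9.66, 2.34 and 3.29 CPM (log2 fold change 3.92 ± 0.40). Bmx, a Tec family kinase of arterial EC, was found at 54, 246 and 179 against 10.3, 9.36 and 17.6 CPM (log2 fold change 3.58 ± 0.36). Alpl was found at 197, 181 and 184 against 41.1, 27.3 and 60.4 CPM (log2 fold change 2.19 ± 0.22).

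By the rule of size, 6 genes were named in each direction. The higher were Dkk2, a Wnt inhibitor (9.54, 68.2 and 182 against 2.63, 2.73 and 4.39 CPM, log2 fold change 4.36 ± 0.51 (SE), edgeR adjusted p = 0.000979), Gkn3, the ephrin ligand Efna5 (3.78 ± 0.40 log2), the synaptotagmin Syt15 (3.66 ± 0.39), Bmx and the cytokine-like Cytl1 (3.49 ± 0.32). Dkk2 had 3 UMIs in 2 of the 40 Gja5-positive members of Foxn1Lin female and 23 UMIs in 10 of 37 members of Foxn1Lin male, so its level rested on few barcodes. Cytl1 was found in 3, 10 and 8 Gja5-positive members. The lower were Aqp1, Aplnr, the receptor of apelin (0, 2.96 and 6.33 against 47.9, 52.2 and 120.2 CPM, log2 fold change -4.44 ± 0.42 (SE), edgeR adjusted p = 0.000425), Dlg2 (-4.33 ± 0.48 log2), Hdac9 (-3.95 ± 0.39), Trp53i11 (-3.74 ± 0.32) and Kirrel3 (-3.60 ± 0.42).

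**Figure D3:**
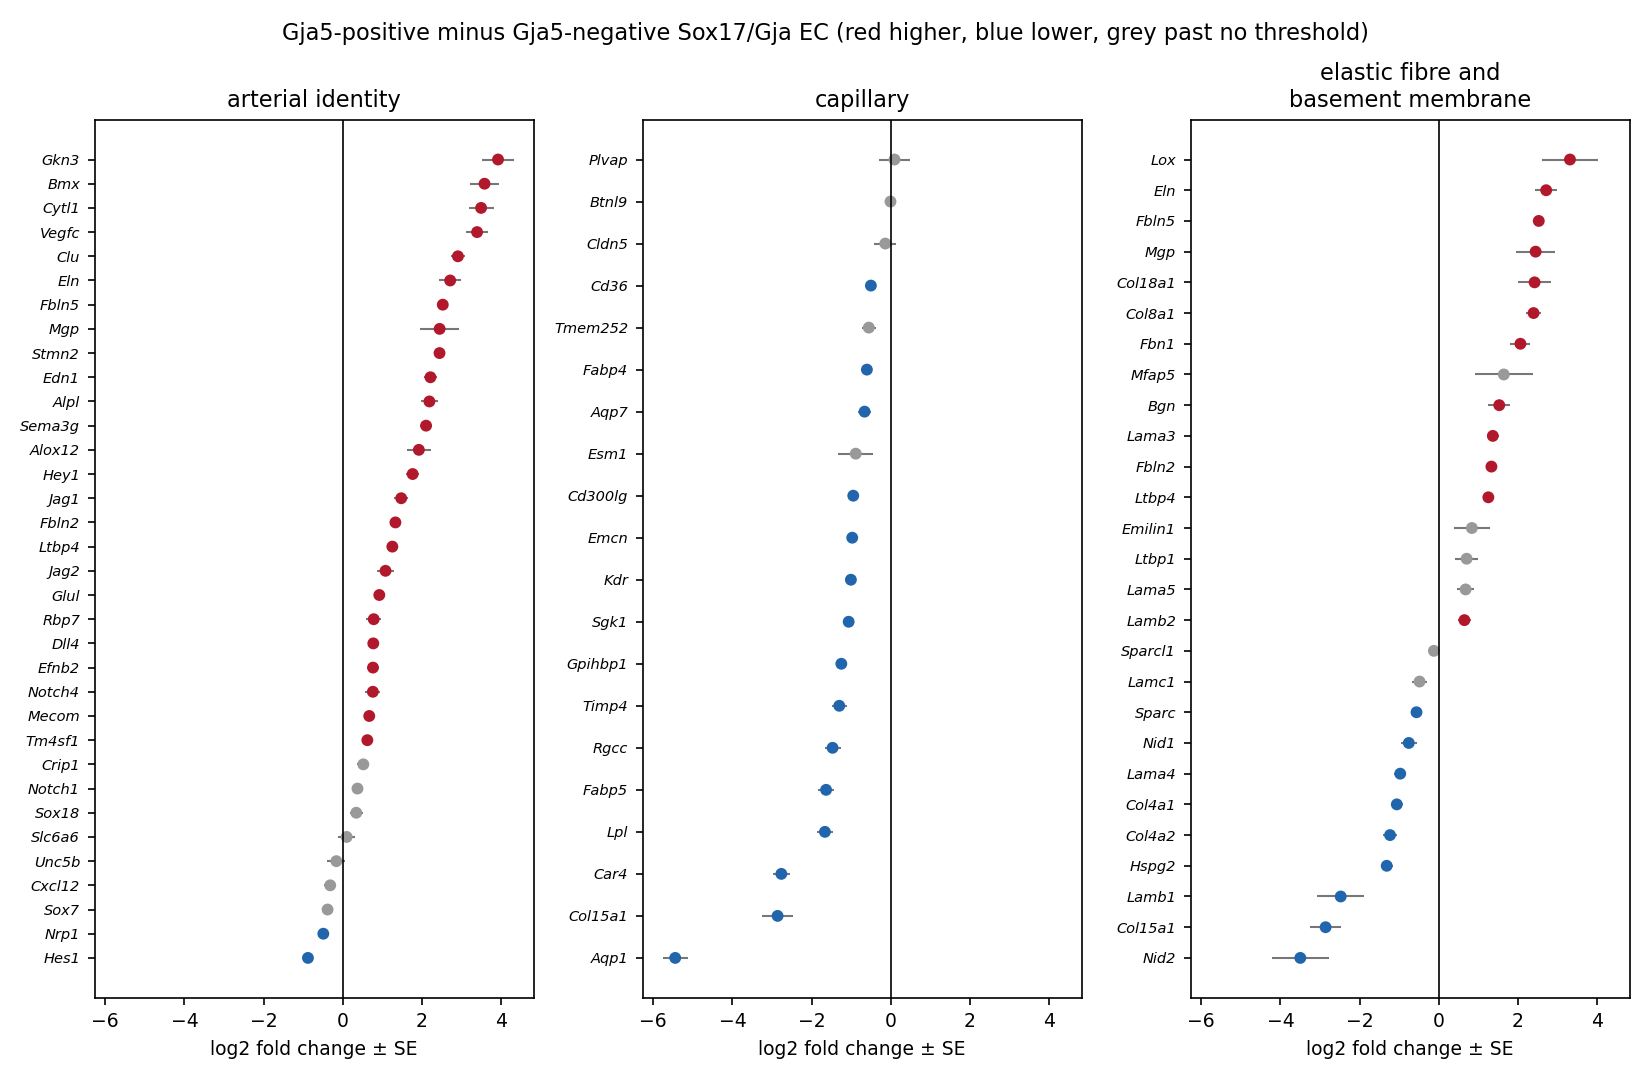
Log2 fold change with its SE (x axis) of every tested gene of 3 fixed lists between Gja5-positive and Gja5-negative Sox17/Gja EC, fitted over 3 libraries, with genes past an adjusted p of 0.05 in red (higher) or blue (lower). Arterial identity genes were higher in 25 of 34, capillary genes lower in 15 of 20, and the matrix list divided into 12 higher and 9 lower.

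The matrix genes parted in 2. Of 27 tested, 12 were higher, among them genes of the elastic fibre. Eln, Fbln2, Fbln5, Ltbp4 and Mgp are also on the arterial list, so their direction was not independent of the choice of class. Eln, tropoelastin (chr5:134702593-134747323), was found at 137, 699.7 and 500.3 CPM in Gja5-positive and 45, 71 and 67 CPM in Gja5-negative members (log2 fold change 2.71 ± 0.27). Foxn1Lin female had the lowest value, still above all those of Gja5-negative members. Mgp, the inhibitor of vessel calcification, was found at 661, 3285 and 1834 against 471, 285 and 223 CPM (log2 fold change 2.44 ± 0.49), and Fbln2 (1.33 ± 0.13 log2), Ltbp4 (1.25 ± 0.13), fibrillin 1 (Fbn1, 2.06 ± 0.25) and the crosslinking enzyme Lox (3.31 ± 0.70) rose as well. The 9 that fell were Lama4, Lamb1, Col4a1, Col4a2, Col15a1, Hspg2, Nid1, Nid2 and Sparc, most of them of the basement membrane, while its genes Lama3, Lamb2 and Col18a1 were higher. Col4a1 and Col4a2, chains of collagen IV, were found at 820.2, 495 and 536 against 1304, 1066 and 1482 CPM (log2 fold change -1.06 ± 0.15 (SE), edgeR adjusted p = 0.00236) and 550.0, 273 and 236 against 913, 669 and 799.9 CPM (log2 fold change -1.23 ± 0.18 (SE), edgeR adjusted p = 0.0029). Lama4 (-0.97 ± 0.15 log2), Sparc (-0.56 ± 0.10), Col15a1 (-2.86 ± 0.40) and Nid2 (-3.50 ± 0.71) were lower. The calls of Mgp (adjusted p = 0.172), Lox (0.128), Sparc (0.074) and Nid2 (0.19) were lost in edgeR without wild type male, and that of Lox without Foxn1Lin male (0.0781). Lama4 had a log2 fold change of 0.04 after thinning.

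Aqp1, the water channel of microvessels (chr6:55336432-55348555), had the largest decrease among the genes named for the Gja5 comparison. It was found at 47.7, 14.8 and 52.8 CPM in Gja5-positive members and 1974, 2150.5 and 1299.5 CPM in Gja5-negative ones (log2 fold change -5.44 ± 0.32 (SE), edgeR adjusted p = 3.4e-05). These were 15, 5 and 25 UMIs, of which 18 of the 25 in wild type male came from 1 barcode. After thinning an Aqp1 UMI was found in 15, 2.7 and 4.17% of Gja5-positive and 67.1, 64.7 and 58.8% of Gja5-negative members, against 13.2, 5.32 and 4.16% of barcodes that were not EC. Empty droplets had 738, 713 and 265 CPM of Aqp1. Car4, the carbonic anhydrase of capillaries, was found at 35, 83 and 42.2 against 329, 642 and 194 CPM (log2 fold change -2.76 ± 0.21 (SE), edgeR adjusted p = 0.000143), and Gpihbp1 at 884, 824 and 312 against 2038, 2104 and 740.0 CPM (log2 fold change -1.25 ± 0.11 (SE), edgeR adjusted p = 0.00025). Lpl (-1.66 ± 0.20 log2), Rgcc (-1.47 ± 0.20), the VEGF receptor Kdr (-1.01 ± 0.13), Emcn (-0.97 ± 0.13), Fabp4 (-0.60 ± 0.09) and Cd36 (-0.50 ± 0.09) were lower, the last with no call without wild type male (adjusted p = 0.0926). Plvap, the diaphragm protein of fenestrated vessels, was found at 327, 109.7 and 299.8 against 134, 312 and 272 CPM (log2 fold change 0.09 ± 0.38 (SE), edgeR adjusted p = 0.946), higher in Foxn1Lin female and wild type male and lower in Foxn1Lin male.

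Among 21 Notch genes 5 were higher, all of them also on the arterial list, the ligands Dll4 (172, 225 and 219.5 against 110.2, 118 and 137 CPM, log2 fold change 0.77 ± 0.15), Jag1 (1.47 ± 0.18 log2) and Jag2 (1.08 ± 0.22), the receptor Notch4 (0.76 ± 0.19) and the target Hey1 (1.76 ± 0.16). The target Hes1 was lower, at 226, 216 and 167 against 422, 405 and 309.6 CPM (log2 fold change -0.88 ± 0.13), and Notch1 did not pass the test (0.37 ± 0.13, adjusted p = 0.157). Without wild type male the calls of Dll4, Jag2 and Notch4 were lost (adjusted p = 0.121, 0.247 and 0.18 in edgeR), and those of Dll4 (0.0528) and Notch4 (0.23) without Foxn1Lin male. Efnb2 was higher (log2 fold change 0.76 ± 0.14), and Nrp1, a co-receptor of VEGF and semaphorins, was lower (log2 fold change -0.49 ± 0.12). The call of Efnb2 was lost without wild type male (adjusted p = 0.202), and that of Nrp1 whichever library was left out (from 0.0615 to 0.19).

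Among 27 genes of flow response and vascular tone 6 were higher and 3 lower. Klf2, the transcription factor induced by laminar flow, was found at 1198, 2194 and 1418 against 933, 1284 and 792 CPM (log2 fold change 0.68 ± 0.12 (SE), edgeR adjusted p = 0.00938), and its target Nos3, endothelial nitric oxide synthase, at 153, 172 and 137 against 88.9, 96.3 and 79.1 CPM (log2 fold change 0.82 ± 0.15 (SE), edgeR adjusted p = 0.00977). Edn1 was found at 455, 285 and 281 against 115, 46.8 and 67.5 CPM (log2 fold change 2.21 ± 0.16), and Ece1, which releases active endothelin, and Ace, which makes angiotensin II, were higher by 0.82 ± 0.12 and 2.19 ± 0.17 on the log2 scale. Thbd, thrombomodulin, was lower (118, 145 and 131 against 175, 318 and 335 CPM, log2 fold change -1.03 ± 0.17 (SE), edgeR adjusted p = 0.00606). Vwf was found at 98.6, 454 and 443 against 28.1, 32.7 and 51.1 CPM (log2 fold change 3.03 ± 0.30 (SE), edgeR adjusted p = 0.000437), and Vcam1 at 111, 1106 and 1115 against 84.5, 194 and 282 CPM (log2 fold change 1.80 ± 0.31 (SE), edgeR adjusted p = 0.00635). For Vcam1 the values of Foxn1Lin female lay close together and those of both male libraries far apart. Without wild type male the calls of Klf2, Nos3, Thbd and Vcam1 were lost (adjusted p from 0.103 to 0.124 in edgeR). Clu, clusterin, was found at 614, 1334 and 1260.2 against 106, 126 and 191 CPM (log2 fold change 2.91 ± 0.17).

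Of 14 tested genes of factors for the thymus, 4 were higher and 0 lower. These were Igf2 (105, 83 and 48.6 against 13, 7.41 and 9.33 CPM, log2 fold change 2.99 ± 0.29 (SE), edgeR adjusted p = 0.000437), Pdgfa (1.58 ± 0.24 log2), Tgfb2 (1.60 ± 0.27) and Dll4. Kitl (846, 952 and 1153 against 865, 1072 and 1348 CPM, -0.13 ± 0.11, adjusted p = 0.629) and Cxcl12 (1424, 706 and 967 against 1289, 1164 and 1318 CPM, -0.32 ± 0.16, adjusted p = 0.322) did not pass the test. Interferon-response genes were lower in 4 of 18, among them Rsad2 (-1.09 ± 0.13 log2) and Ifit2 (-0.70 ± 0.15), and Ly6a was higher (0.43 ± 0.10). Gja1, connexin 43, which was not used in the rule, was found at 302, 326 and 376 against 395, 555 and 516 CPM (log2 fold change -0.52 ± 0.13 (SE), edgeR adjusted p = 0.0462). Tgfb2, Ifit2, Ly6a and Gja1 lost their calls without wild type male (adjusted p from 0.114 to 0.2 in edgeR). Ly6a and Gja1 lost them without Foxn1Lin male as well (0.219 and 0.238), and Ifit2 whichever library was left out.

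Members divided by gate gene gave a series for many of these genes, which is a description since the gate genes chose the classes. Fbln5 was at 40.8, 99.1 and 82.5 CPM in members with Sox17 alone, 223, 224 and 296 CPM in those with Gja4 and no Gja5, and 436, 818 and 690.3 CPM in those with Gja5. Stmn2 was at 54.9, 44.5 and 50.5, then 250.2, 160.0 and 106 CPM in the same classes, below the levels given above for Gja5. Aqp1 went the other way, with 2266, 2381 and 1475 CPM, then 1105, 923 and 706 CPM. Remaining EC had 60.0, 80.2 and 58.1 CPM of Fbln5, above members with Sox17 alone in Foxn1Lin female and below them in both male libraries. Sema3g was at 54.3, 85.7 and 153 CPM in members with Sox17 alone against 59.1, 82.4 and 101 CPM in remaining EC, and Gpihbp1 at 2245, 2191 and 819.9 against 1769, 2160.4 and 622 CPM. These differences were not tested. The middle class differed in another way. Rgs5 was at 1063, 1088 and 494 CPM in members with Gja4 and no Gja5, against 306, 48.6 and 109 CPM with Sox17 alone and 614, 104 and 395 CPM with Gja5, and at least 2 mural UMIs were found in 60.2%, 38.7% and 13.5% of its barcodes. Adamts12 was highest there too, at 221, 118 and 171 CPM.

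**Figure D4:**
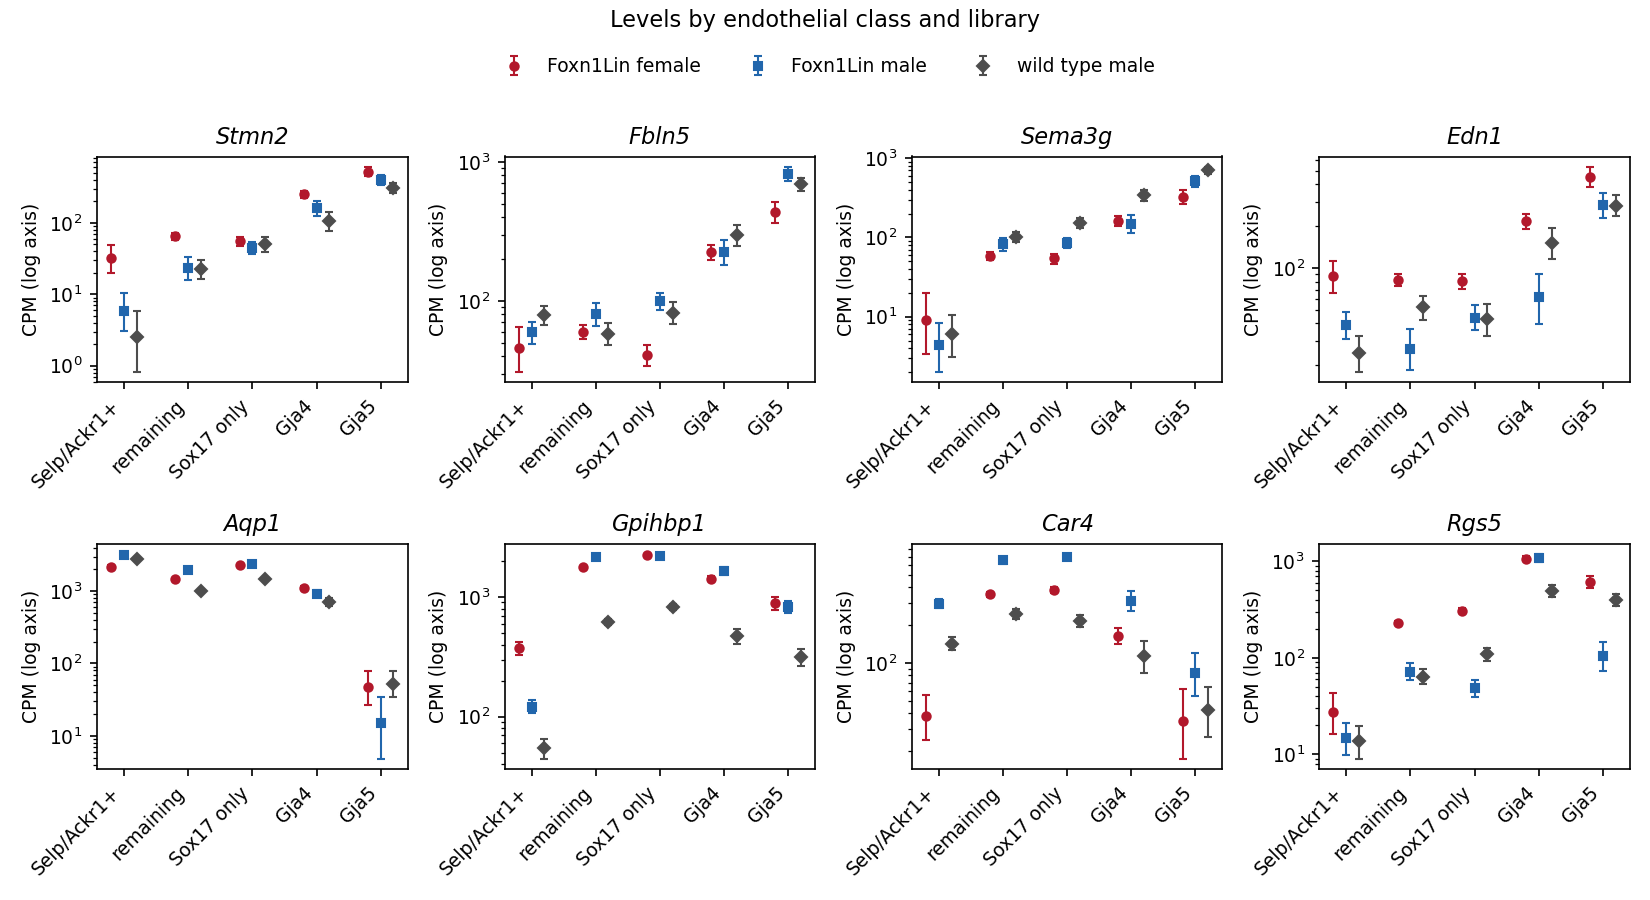
Level of 8 genes (CPM, log axis) in Selp/Ackr1-positive EC, remaining EC and the 3 classes of Sox17/Gja EC (x axis), 1 point per library with its 95% Poisson interval for counting error. Stmn2, Fbln5 and Sema3g were highest in members with Gja5 in all 3 libraries, Aqp1 lowest, and Rgs5 highest in members with Gja4 and no Gja5.

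The 3 libraries were compared without a test, as ratios of the members' CPM. Between Foxn1Lin female and Foxn1Lin male 853 of 9574 genes with at least 50 UMIs differed more than 2-fold (8.91%; 5.93% higher in the female library, 2.98% lower), and between Foxn1Lin male and wild type male 648 of 8510 (7.61%; 2.53% higher in Foxn1Lin male, 5.09% lower), with medians of -0.01 and -0.07 on the log2 scale. Sema3c, a semaphorin, had 888 CPM in members of Foxn1Lin female and 4.82 CPM in Foxn1Lin male. In other EC it had 1041 and 14.9 CPM, and in empty droplets 2313 and 25.7 CPM, so it differed in the same direction outside cells. Gm11867 (134 against 1.03 CPM, with 267 and 5.99 in empty droplets) and Igfbp6 (46.8 against 0.345 CPM, with 494 and 66.8) differed in the same direction in both as well, on 3 and 1 UMIs in Foxn1Lin male. S100a8 and S100a9, calprotectin of neutrophils, had 329 and 318 UMIs in members of Foxn1Lin female, of which single barcodes held 281 and 286. Zbtb16 was higher in Foxn1Lin male, at 246 CPM against 30.6 CPM in Foxn1Lin female and 36.2 CPM in wild type male, spread over 211 of its 273 members. Other EC differed in the same direction, with 149.8 CPM against 39.4 and 31.0 CPM, and so did empty droplets, with 53.0 CPM against 19.5 and 22.7 CPM. Timp4, the capillary inhibitor of metalloproteinases, had 778 CPM in members of Foxn1Lin male and 123 CPM in wild type male (log2 ratio 2.66, 95% Poisson interval 2.48 to 2.85). Its log2 ratio was 2.60 in other EC, and empty droplets had 91.0 and 17.5 CPM of it. Cytl1 was higher in members of Foxn1Lin male than in those of Foxn1Lin female (152 against 23 UMIs), in 13 of 273 and 11 of 618 members. Lyz2, Tyrobp and Cybb, genes of myeloid cells, were higher in members of wild type male, with 97, 57 and 51 UMIs against 5, 0 and 0, and single barcodes held 74, 33 and 34 of these.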

How the data were processed

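Single-cell RNA-seq libraries of thymic stroma (droplet 10x chemistry), 1 for each group (Foxn1Lin of either sex, wild type male), were analysed from the UMI counts per gene and barcode that the authors deposited. Per the labels, the authors aligned reads with Cell Ranger (version 7.01) to a mouse genome of build GRCm38 (mm10) extended by reporter sequences, 32285 mouse genes and 8 transgenes in all. Barcodes with more than 1000 genes and under 20% mitochondrial counts were kept, and the members were chosen as given in the report. The members and the gene lists were chosen with earlier results of these data known.

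UMIs were summed per library and class. Classes were compared within libraries with edgeR 4.0.16 (R 4.3.3; trimmed mean scaling, default filter on low counts, quasi-likelihood test with the library as a block, Benjamini-Hochberg adjustment, threshold 0.05). Classes of 1 library come from the same pooled thymi, which is the source of the pairing. Nothing in the labels gives separate cultures or animals beyond the 3 pools, so p-values measure the spread between these pools. Libraries were compared with each other without a test, as ratios of CPM, and intervals (95%, exact binomial or Poisson) and floors of 3 counts cover counting error only. Genes to be named were those past the threshold, changed in the same direction in all libraries, at 50 CPM or more in the higher class and largest in fold change, 12 in each direction (6 for Gja5), beside genes of the fixed lists. For libraries they were the 6 with the highest and the 6 with the lowest ratio. Genes of the rule, transgenes and sex-linked, mitochondrial, ribosomal, hemoglobin and immunoglobulin genes were not ranked. A few genes of either kind are given, the rest by count. Shares of barcodes with a UMI were compared after thinning to 2000 UMIs. Doublets were scored with Scrublet (scanpy 1.11.5), kept, and the highest 3.9% left out as an alternative. Called barcodes shared by libraries numbered 8, 14 and 3 for the 3 pairs, with 0, 1 and 0 members among them. Alternatives were DESeq2 1.42.0 and its size factors, no filter, no block, each library left out, other gates, thinning, and leaving out barcodes with mural UMIs. The fit was tested on simulated data, where changes of 1 on the log2 scale were found for 85%, 75%, 86.9% and 65% of changed genes in the 4 comparisons, over 14118, 11085, 11053 and 8892 genes. These data had a fixed spread, the same change in every library, and changed genes taken only from those with many UMIs. The real data need not share these settings, so the percentages are not the power of the fit in them.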

Additional observations from a re-analysis of the deposited data

Results flagged for a closer look

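Cldn5, a tight junction protein of EC, had a log2 ratio between Gja5-positive and Gja5-negative members of -1.26 in Foxn1Lin female and of 0.415 and 0.322 in Foxn1Lin male and wild type male, in opposite directions. Cxcl12 had log2 ratios of 0.144, -0.722 and -0.447 in the same comparison and order. Efnb2 had log2 ratios between members and remaining EC of -0.239, 0.254 and 0.291. The share of barcodes with at least 2 mural UMIs in members minus that in other EC came to 11.4 percentage points (Foxn1Lin female), -13.3 (Foxn1Lin male) and -16.1 (wild type male). These opposite directions were not tested, since each group is 1 library.

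The tdTomato reporter of the Foxn1 lineage, outside the main measurement, was found in members at 46.8 CPM in Foxn1Lin female and 50.6 CPM in Foxn1Lin male, and at 0 UMIs in wild type male. Empty droplets had 236 and 580.2 CPM of it, above the members, and barcodes that were not EC 244 and 575 CPM. After thinning 9.17% and 9.93% of members had a UMI of the reporter, against 14.9% and 25.5% of barcodes that were not EC.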

How the results depend on the processing

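Counts of genes called are given first. Against other EC 3152 were called, against 1007 without the library block, 58 after thinning to 2000 UMIs (of 8419 tested, against 13757), 1966 without barcodes with mural UMIs, 755 when other EC had no gate UMIs, and 1654 to 2785 when 1 library was left out. Against Selp/Ackr1-positive EC 3182 were called, against 1232 without the block, 1408 after thinning (21.3% of 6607 tested, against 28.8% of 11049), and 1489 to 2987 with 1 library left out. Against remaining EC 132 were called, against 831 without the filter on low counts (3.65% of 22739 tested), 0 without the block (413 at an unadjusted p under 0.05; 168 by DESeq2), 1 after thinning, and 0 to 194 with 1 library left out. For Gja5 651 were called, 7.27% of 8954 tested, against 1044 without the filter (5.16% of 20217), 96 without the block, 58 after thinning (4.52% of 1282), and 211 to 697 with 1 library left out. The replicate block, the library, thus moved each of the 4 counts by more than 1.5 times.

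The following alternatives were chosen after seeing the data. With thinning and no mural barcodes the 4 counts were 36, 1219, 1 and 72. With the gate on Gja5 and Gja4 alone 1790 genes were called against other EC, and 1466 without mural barcodes.

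Shares of members among EC, for Foxn1Lin female, Foxn1Lin male and wild type male, were 16.2%, 22.6% and 15.7% with a gate of 3 UMIs, 22.3%, 32.4% and 25.6% without mural barcodes, 10.8%, 11.2% and 7.23% after thinning, 10.1%, 12.8% and 8.2% after both, 3.12%, 4.57% and 5.17% with connexins alone, and 1.89%, 4.12% and 5.49% with connexins alone and no mural barcodes. The cell filter on both limits gave 22.6% in Foxn1Lin female. After thinning 16.8% of genes differed more than 2-fold between Foxn1Lin male and wild type male.

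Directions turned for these log2 fold changes, and the cause was not tested. In the Gja5 comparison these were Bmp4 (-0.194 to 0.450 with 1 library left out), Cldn5 (-0.449 to 0.408) and Plvap (-0.497 to 0.709) likewise, Plvap without mural barcodes (-0.0856), and Lama4 after thinning (0.0353, and 0.21 without mural barcodes too). Against other EC the connexin gate gave -0.15 for Gpihbp1, 0.43 for Vcam1 and 0.31 for Vwf, and without mural barcodes too -0.81, 1.12 and 0.78, with -0.0390 for Cd36, -0.34 for Fabp4, -0.0160 for Hes1, -0.0066 for Nrp1 and -0.59 for Rgs5. Rgs5 was at -0.0827 without mural barcodes alone. Against remaining EC Adamts12 was at -0.92 and Rgs5 at -0.51 without mural barcodes, Cd36 at -0.0262, Hey1 at -0.0629 and Notch1 at -0.0329 after thinning, and Aqp1 at -0.0283, Cxcl12 at -0.0025, Hey1 at -0.0844 and Notch1 at -0.0037 after both. Rgs5 is one of the genes by which mural barcodes were found, so its values without them follow from that choice and are no test.

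With 1 library per group, differences between libraries had no replicate check. The smallest class tested held 37 barcodes in 1 library, which limits the precision for genes with few UMIs.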
